A study of Mus musculus with 32 samples.

Results

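The comparison set CD8+ T cells of the spleen against CD8+ T cells taken from the lymph node on day 12. It used 8 of the 32 RNA sequencing libraries of the study, the 4 labelled Spleen and the 4 labelled TDLN_D12, read here as the tumor-draining lymph node. All libraries with these labels were taken. All libraries came from CD8+ Thy1.1+ cells of the Pmel line, in which every T cell bears the same transgenic receptor against an antigen of melanocytes. The mice were C57BL/6, 16 weeks old, and labelled with vitiligo that accompanies melanoma, in both groups. The Spleen group has no time and no cell state in its labels, and the study's text gives 45 days after tumor surgery for the draining lymph node, skin, lung and liver only. Neither the event from which day 12 was counted nor the dissociation of spleen is given there; lymph nodes were dissociated mechanically. Whether the libraries came from separate animals is not labelled, so the spread between libraries behind the p-values may be technical. In the main fit that spread was pooled over all 8 groups of the study. Their residual SD ran from 0.303 log2 units in TDLN_D12 to 1.33 in Liver. A further pair of groups of 4 libraries served for orientation: Mem_LN, the memory cells of the lymph node, and Naive, from spleen, both with the same strain, age and disease labels.

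After a T cell meets its antigen in a draining lymph node it divides rapidly, and its cell cycle, glycolysis and biosynthesis genes are switched on together. As the antigen wanes, most of the progeny die, and the survivors return to a resting state that is maintained by the cytokines IL-7 and IL-15. Spleen memory cells are a mixture of central memory cells, which recirculate through lymph nodes, and effector memory cells, which patrol the blood and the red pulp.

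Levels are in TPM (shares of the transcripts, scaled by transcript length and to the same sum in each library), so they can be compared between genes but carry no read depth. A gene was tested if it had at least 1 TPM in at least 4 of the 32 libraries, and 19738 genes were. A gene was called when its adjusted p lay under 0.05. Every log2 change is Spleen minus TDLN_D12 on the scale of log2(TPM + 1), with its standard error (SE), and n = 4 libraries per group throughout. That scale understates the change of low genes. Values per library are given in the order of replicates 1 to 4.

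The 2 groups were unequal in spread and in other cells' RNA. The residual SD was 0.892 log2 units in Spleen and 0.303 in TDLN_D12, and pairs of libraries correlated at 0.889 to 0.936 in Spleen and 0.988 to 0.991 in TDLN_D12. The defining genes of the labelled cell were present throughout. Cd8a lay between 250.2 and 569.1 TPM in Spleen and between 442.4 and 524.9 TPM in TDLN_D12. Thy1 had 163.0, 121.7, 51.56 and 28.72 TPM in Spleen and 35.39 to 54.1 TPM in TDLN_D12, a wider spread in Spleen. None of 20 T cell identity genes was called. Their sum was 16716, 24603, 32859 and 12467 TPM in Spleen, against 29139 to 33555 TPM in TDLN_D12, lowest in Spleen replicate 4. B cell genes summed to 6374, 8080, 22477 and 40815 TPM in Spleen and to 749.1 to 959.2 TPM in TDLN_D12, and 29 of 40 were called higher. Myeloid and dendritic cell genes summed to 4771, 6408, 2788 and 18653 TPM in Spleen and to 1203 to 1410 TPM in TDLN_D12, and 34 of 68 tested were called higher. Erythroid genes summed to 98.28 to 1570 TPM in Spleen and to 43.6 to 59.58 TPM in TDLN_D12, and plasma cell genes to 45.13 to 1497 TPM and 22.24 to 26.54 TPM. Of 14 erythroid genes 5 were called higher and 1 lower, of 8 plasma cell genes 1 higher, of 7 platelet genes 2, of 16 stromal and endothelial genes 1 and of 6 gamma delta T cell genes 1. No call was made among the NK cell, CD4 and regulatory T cell, hepatocyte, or keratinocyte and melanocyte genes. NK cell genes summed to 6.56 to 85.79 TPM in Spleen and 1.07 to 2.98 TPM in TDLN_D12, so every Spleen library lay above. The part of this other RNA in the results below was not tested, but the counts were also taken from a fit with the B cell and myeloid sums as covariates, and from a fit without Spleen replicates 3 and 4, which had the highest B cell sums. Those counts are given wherever they moved by over 1.5 times. The B cell and the myeloid sums did not overlap between the groups, so these covariates vary together with the contrast itself. A call lost with them may therefore reflect a wider error as well as a smaller change. In bulk samples, fewer cells of a type and less RNA per cell cannot be told apart.

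**Figure D1:**
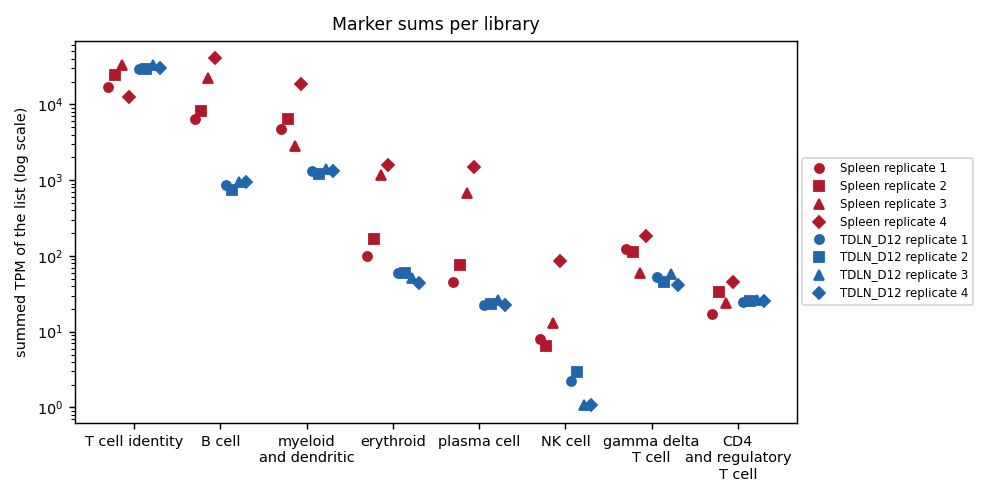
Summed TPM of 8 marker lists on a log axis, 1 point per library, Spleen in red to the left of TDLN_D12 in blue. B cell sums were 6374 to 40815 TPM in Spleen and 749.1 to 959.2 TPM in TDLN_D12, while the T cell identity sums of the groups overlapped.

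Over all genes, 727 were called higher (3.68% of those tested) and 887 lower (4.49%) in Spleen, together 8.18%. In 13.9% of the genes every Spleen library lay above every TDLN_D12 library, and in 11.3% every one lay below, together 25.2%. The median change over all genes was 0.141. After quantile normalization, which brought that median to 0.033, the split was 656 higher and 1388 lower. Leaving out 1 TDLN_D12 library lowered the number of higher genes to 392, 381, 369 or 425, for replicates 1 to 4.

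Genes of cell division were lower in Spleen as a block. All 56 members of the mitosis list, which holds cyclins, mitotic kinases, kinesins and kinetochore and condensin subunits, were called lower in Spleen, against 4.49% of all genes. In each of them every Spleen library lay below every TDLN_D12 library. Their median log2 change was -3.42 and the range was -5.89 to -1.22. The median member stood at a log2 level of 2.72, 3.27, 2.65 and 3.59 in Spleen, against 6.58, 6.46, 6.54 and 6.29 in TDLN_D12 and 1.24 to 1.67 in Naive cells. Spleen libraries thus lay between Naive and TDLN_D12 libraries for the median of this list. With the B cell and myeloid sums as covariates 32 of the 56 were called, and without Spleen replicates 3 and 4 the count was 54.

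Ccnb1, the cyclin B1 that activates Cdk1 for entry into mitosis (chr13, GRCm38), had 2.62, 0.09, 0.46 and 35.51 TPM in Spleen, against 245.6, 233.3, 241.8 and 183.9 TPM in TDLN_D12. It showed the largest called decrease among the named genes, -5.89 ± 0.85 (SE, adjusted p = 3.52e-05). Spleen replicate 4 held most of the remaining Ccnb1 and the groups did not overlap. Ccna2, the cyclin A2 of S phase and early mitosis, had 10.62, 7.52, 2.17 and 23.41 TPM in Spleen and 330.3, 331.5, 308.0 and 244.7 TPM in TDLN_D12 (-5.01 ± 0.72, adjusted p = 3.25e-05). Ccnb2, the other B-type mitotic cyclin, had 11.4, 9.59, 8.84 and 25.11 TPM in Spleen and 409.1, 409.9, 415.6 and 366.9 TPM in TDLN_D12 (-4.89 ± 0.73, adjusted p = 5.41e-05). For all 3 cyclins the highest Spleen library was its replicate 4, and the lowest TDLN_D12 library was that group's replicate 4.

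Spindle and kinetochore regulators followed. Tpx2, a spindle assembly factor that activates Aurora A, had 2.36, 0.45, 3.2 and 9.58 TPM in Spleen and 81.07 to 113.3 TPM in TDLN_D12 (-4.70 ± 0.57, adjusted p = 2.68e-06). Aurka, the Aurora A kinase itself, had 1.25, 3.13, 4.14 and 16.57 TPM in Spleen and 88.71 to 101.2 TPM in TDLN_D12 (-4.15). Nek2, a centrosome kinase, Cep55, a scaffold of the midbody, and Bub1b, a spindle checkpoint component, changed by -4.61, -4.61 and -4.40. Cdkn3, a phosphatase of cyclin-dependent kinases, had 8.3, 7.17, 0.0 and 9.29 TPM in Spleen and 104.9 to 123.0 TPM in TDLN_D12 (-4.43 ± 0.78, adjusted p = 0.000332). Mki67, the proliferation antigen Ki-67, had 3.59, 11.47, 3.94 and 3.92 TPM in Spleen and 38.81, 33.72, 39.92 and 43.45 TPM in TDLN_D12 (-2.70 ± 0.44, adjusted p = 0.000144). Spleen replicate 2 was the highest of its group for Mki67, still under every TDLN_D12 library. Each of these calls held whichever of the 8 libraries was left out; with the covariates, Cdkn3 no longer passed (adjusted p = 0.0684).

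**Figure D2:**
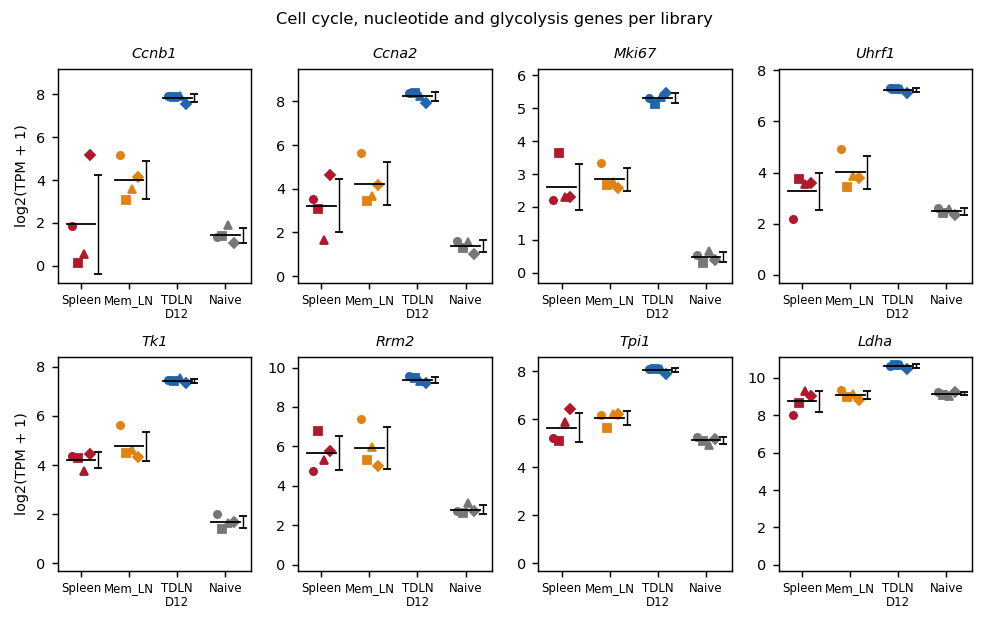
Log2(TPM + 1) of 8 genes per library in Spleen, Mem_LN, TDLN_D12 and Naive cells, with marker shapes for replicates 1 to 4, a line at the mean and an error bar of 1 SD (n = 4). For each gene the TDLN_D12 libraries were the highest and the Spleen libraries lay below all of them, at 0.09 to 35.51 TPM for Ccnb1 against 183.9 to 245.6 TPM.

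The DNA replication list held origin licensing factors, the replicative helicase, polymerases, the clamp and its loader, and chromatin assembly factors. Of its 42 members 34 were called lower in Spleen, against 4.49% of all genes, and none higher, with a median log2 change of -2.63. In 41 of the 42 every Spleen library lay below every TDLN_D12 library, against 11.3% of all genes. The count was 13 with the B cell and myeloid covariates and 31 without Spleen replicates 3 and 4. Uhrf1, which recruits the maintenance DNA methyltransferase to replicated DNA, had 3.52, 12.33, 10.88 and 10.98 TPM in Spleen and 157.6, 152.9, 152.5 and 137.8 TPM in TDLN_D12 (-3.97 ± 0.57, adjusted p = 3.41e-05). Mcm10, a helicase activating factor, had 0.64, 0.69, 0.62 and 2.41 TPM in Spleen and 31.38, 30.37, 31.47 and 24.4 TPM in TDLN_D12 (-3.93 ± 0.56, adjusted p = 2.77e-05). Chaf1a, a subunit of the histone chaperone CAF-1, changed by -3.78, and Gins2, a subunit of the helicase complex, by -3.47. All 4 genes kept their calls with the covariates and whichever library was left out. The median member of the list had a log2 level of 3.88, 4.4, 4.26 and 4.66 in Spleen, 6.5, 6.52, 6.56 and 6.37 in TDLN_D12 and 4.2 to 4.41 in Naive cells, so Spleen and Naive overlapped here.

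Of 26 nucleotide synthesis genes 16 were called lower, against 4.49% of all genes, and none higher, with a median change of -1.72. In 23 of the 26 every Spleen library lay below every TDLN_D12 library, against 11.3% of all genes. Rrm2, the regulated subunit of ribonucleotide reductase, had 26.21, 110.5, 38.49 and 52.52 TPM in Spleen and 752.6, 709.2, 631.1 and 588.8 TPM in TDLN_D12 (-3.73 ± 0.64, adjusted p = 0.000248). Its partner Rrm1 changed by -3.45 and Tk1, thymidine kinase of dividing cells, by -3.22. Tk1 had 19.46, 18.49, 12.46 and 21.11 TPM in Spleen and 160.7 to 185.1 TPM in TDLN_D12, the narrowest Spleen range of these. With the covariates 9 members were called, and Rrm2 was not among them (adjusted p = 0.0637).

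The promoters of these genes are shown because the members moved together. The DREAM complex and other MuvB complexes act on promoters of mitotic genes through an element called CHR, whose core is TTTGAA. It often lies near CCAAT boxes bound by NF-Y. E2F factors act on replication genes through elements such as TTTGGCGC and TTTCCCGC. Promoter windows of 300 bases, 250 before to 50 after the annotated start, came from RefSeq on GRCm38.p6. They were found for 46 of the 56 mitosis genes, 33 of the 42 replication genes and 10877 of the genes tested. On either strand TTTGAA was present in 76.1% of the mitosis windows, in 15.2% of the replication windows and in 13.0% of the windows of tested genes (18.1% of all 27025 windows). CCAAT was present in 71.7%, 63.6% and 39.0% (37.9% of all). TTTGGCGC or TTTCCCGC was present in 6.5%, 33.3% and 2.8% (1.6% of all). No motif contains another, and a match is a description of letters, not of binding. The 4 mitosis genes below had the largest decreases among those that hold both CCAAT and TTTGAA in the 250 bases before the start. The 2 replication genes had the largest decreases among those that hold one of the E2F elements there. Cdc20 (-4.12), Ube2c (-4.08), Cdc6 (-3.47) and Mcm5 (-3.39) were chosen after their values were seen; Cdc20 and Ube2c encode parts of the machinery that degrades mitotic cyclins, and Cdc6 and Mcm5 license replication origins. Each sequence runs 5′ to 3′ on the gene's strand, and capitals mark these motifs or their reverse complements.
Ccnb2, chr9:70421555-70421804, minus strand: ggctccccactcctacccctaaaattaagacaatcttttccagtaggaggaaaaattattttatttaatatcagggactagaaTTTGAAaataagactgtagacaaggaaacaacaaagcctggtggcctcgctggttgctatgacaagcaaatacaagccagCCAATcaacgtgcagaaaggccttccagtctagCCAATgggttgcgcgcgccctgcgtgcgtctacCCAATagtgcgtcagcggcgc
Cdkn3, chr14:46760291-46760540, plus strand: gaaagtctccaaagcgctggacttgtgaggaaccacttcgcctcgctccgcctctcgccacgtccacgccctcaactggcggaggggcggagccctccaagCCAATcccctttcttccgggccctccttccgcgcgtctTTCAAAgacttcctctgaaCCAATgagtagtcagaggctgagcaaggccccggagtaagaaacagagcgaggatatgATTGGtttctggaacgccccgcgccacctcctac
Cdc20, chr4:118437344-118437593, minus strand: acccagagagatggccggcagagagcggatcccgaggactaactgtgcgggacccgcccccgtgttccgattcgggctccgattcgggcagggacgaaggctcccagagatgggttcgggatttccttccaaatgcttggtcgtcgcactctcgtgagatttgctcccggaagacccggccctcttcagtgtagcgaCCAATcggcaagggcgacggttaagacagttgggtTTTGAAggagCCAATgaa
Ube2c, chr2:164769679-164769928, plus strand: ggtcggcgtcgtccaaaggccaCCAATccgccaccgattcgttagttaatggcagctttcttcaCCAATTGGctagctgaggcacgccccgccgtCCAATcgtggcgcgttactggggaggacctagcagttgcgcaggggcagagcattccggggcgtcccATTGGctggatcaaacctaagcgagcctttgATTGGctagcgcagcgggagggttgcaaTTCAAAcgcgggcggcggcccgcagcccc
Cdc6, chr11:98907901-98908150, plus strand: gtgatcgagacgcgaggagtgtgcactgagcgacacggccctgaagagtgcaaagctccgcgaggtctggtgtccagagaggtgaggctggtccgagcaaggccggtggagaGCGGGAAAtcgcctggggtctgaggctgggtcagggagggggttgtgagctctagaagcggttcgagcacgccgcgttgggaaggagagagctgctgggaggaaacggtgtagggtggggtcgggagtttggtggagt
Mcm5, chr8:75109259-75109508, plus strand: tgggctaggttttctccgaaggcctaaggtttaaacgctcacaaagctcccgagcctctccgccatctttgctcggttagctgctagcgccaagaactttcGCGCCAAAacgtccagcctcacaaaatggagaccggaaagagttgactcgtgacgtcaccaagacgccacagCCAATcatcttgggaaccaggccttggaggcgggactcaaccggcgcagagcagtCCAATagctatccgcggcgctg

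Metabolic genes of growing cells were lower in Spleen in part. Of 29 glycolysis and hypoxia genes 7 were called lower and none higher (median -0.89), of 39 respiratory chain genes 6 lower and none higher (median -0.54), and of 30 amino acid transport and sterol synthesis genes 7 lower and none higher (median -1.25). Over all genes 4.49% were called lower. Tpi1, triosephosphate isomerase, had 36.29, 33.38, 57.98 and 84.02 TPM in Spleen and 270.7, 271.6, 273.3 and 238.6 TPM in TDLN_D12 (-2.39 ± 0.29, adjusted p = 2.70e-06). Ldha, which turns pyruvate into lactate, had 256.0, 403.6, 620.4 and 512.1 TPM in Spleen and 1596, 1626, 1652 and 1425 TPM in TDLN_D12 (-1.88 ± 0.36, adjusted p = 0.000977). The glycolytic enzymes Pgk1, Pgam1 and Gapdh changed by -2.16, -1.81 and -1.71, and for these as for Tpi1 and Ldha the groups did not overlap. With the covariates 4 glycolysis genes were called; Tpi1, Ldha, Pgk1 and Pgam1 passed and Gapdh did not (adjusted p = 0.0636). The call of Pkm, the last enzyme of glycolysis (-1.97), ended without Spleen replicate 1 (adjusted p = 0.0521).

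In the respiratory chain Atp5g3, a subunit c gene of ATP synthase, had 411.9, 452.9, 476.0 and 375.6 TPM in Spleen and 1042, 1079, 1198 and 1150 TPM in TDLN_D12 (-1.38 ± 0.22, adjusted p = 0.000102). It was the only one of the 6 called members whose call held whichever library was left out. The count for that list fell to 1 without Spleen replicate 1 and to 3, 3, 2 and 3 without TDLN_D12 replicates 1 to 4, and it was 1 with the covariates. Sterol synthesis genes included Sqle, squalene epoxidase, with 4.2, 3.4, 2.43 and 12.75 TPM in Spleen and 34.99 to 49.57 TPM in TDLN_D12 (-2.96 ± 0.62, adjusted p = 0.00213). Cyp51, which demethylates lanosterol, changed by -2.40, Idi1, isopentenyl diphosphate isomerase, by -2.27 and Fdft1, squalene synthase, by -1.91. Sqle and Cyp51 passed with the covariates as well. The list count was 14 without Spleen replicate 4, 13 without replicates 3 and 4, and 2 with the covariates.

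Of 43 ribosome biogenesis and Myc target genes 2 were called, both lower, a share near the 4.49% of all genes: Npm1, nucleophosmin (-1.45 ± 0.28, adjusted p = 0.00104), and Odc1, which makes the polyamine putrescine (-1.95 ± 0.49, adjusted p = 0.0104, and 0.173 with the covariates). That count was 7 without Spleen replicate 4, 4 without TDLN_D12 replicate 3 and 8 without Spleen replicates 3 and 4. Myc itself, the transcription factor for growth genes, had 6.84, 19.62, 89.13 and 91.09 TPM in Spleen and 32.31 to 41.2 TPM in TDLN_D12, so 2 Spleen libraries lay below and 2 above all TDLN_D12 libraries. Among 27 genes of fatty acid handling 3 were called lower and 1 higher, against 4.49% and 3.68% of all genes. Scd2, a fatty acid desaturase, had 3.94, 9.87, 6.73 and 12.74 TPM in Spleen and 41.51 to 51.42 TPM in TDLN_D12 (-2.45 ± 0.43, adjusted p = 0.000339). Fabp5, a fatty acid binding protein, had 18.57, 38.86, 8.29 and 22.93 TPM in Spleen and 175.1 to 195.2 TPM in TDLN_D12 (-3.19 ± 0.82, adjusted p = 0.0133). The 1 higher call, Aqp9, a glycerol channel, ended without Spleen replicate 3 or 4 or any TDLN_D12 library (highest adjusted p 0.0603), and the higher count was likewise 0 without Spleen replicates 3 and 4 and with the covariates.

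**Figure D3:**
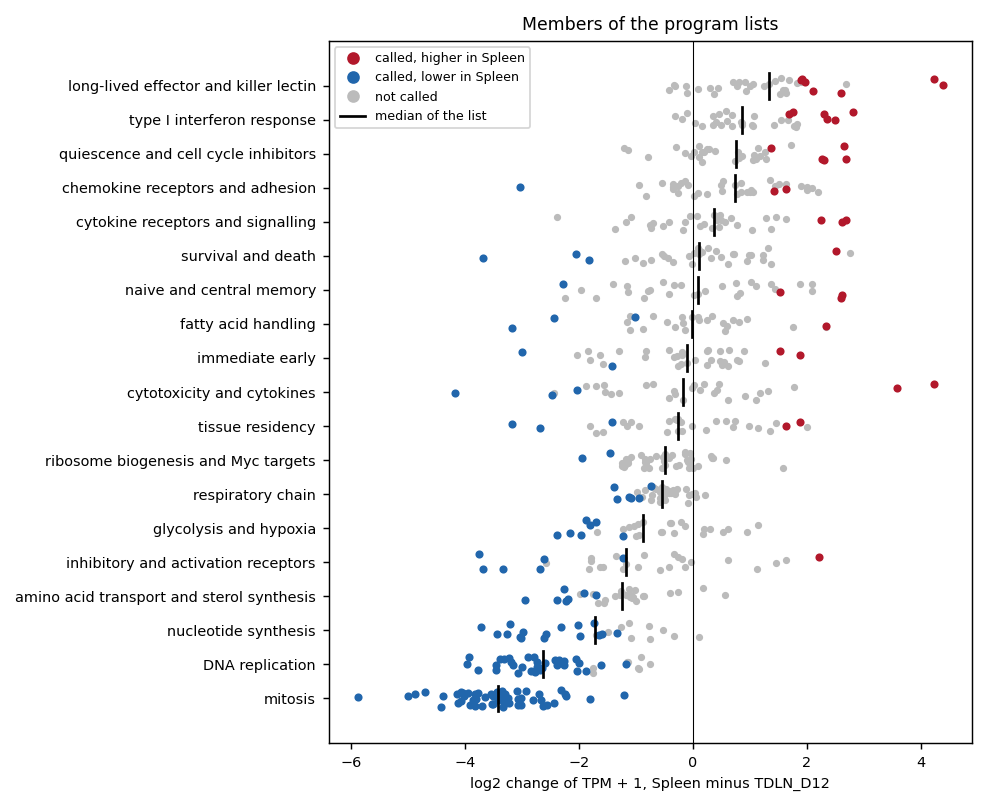
Log2 change of TPM + 1, Spleen minus TDLN_D12, of each tested member of 19 gene lists, ordered by median from top to bottom. Red points were called higher in Spleen, blue points lower and grey points were not called; all 56 mitosis members were blue, with a median of -3.42.

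Of 32 quiescence genes and cell cycle inhibitors 5 were called higher in Spleen, against 3.68% of all genes, none lower and 27 not, with a median change of 0.76. In 13 of them every Spleen library lay above every TDLN_D12 library, against 13.9% of all genes. Tsc22d3, a leucine zipper protein induced by glucocorticoids, had 396.5, 706.2, 371.3 and 819.2 TPM in Spleen and 85.3, 81.67, 89.17 and 75.33 TPM in TDLN_D12 (2.69 ± 0.44, adjusted p = 0.000166). Btg1, an antiproliferative gene that keeps T cells quiescent, had 329.1, 299.2, 400.4 and 539.5 TPM in Spleen and 72.62 to 79.84 TPM in TDLN_D12 (2.30 ± 0.40, adjusted p = 0.000268). Txnip, which restrains glucose uptake, had 754.5, 502.6, 404.4 and 418.2 TPM in Spleen and 97.59 to 110.9 TPM in TDLN_D12 (2.26 ± 0.34, adjusted p = 5.46e-05). The groups lay far apart for all 3 genes, which also passed with the covariates. Pik3ip1, an inhibitor of PI3 kinase, changed by 2.65. Ccnd2, also counted among the 5, is a D-type cyclin and not a cell cycle inhibitor, and changed by 1.36. Neither passed with the covariates (adjusted p = 0.0767 and 0.0544), at changes of 2.8 and 1.67. With the covariates 3 members were called, and 5 without Spleen replicates 3 and 4.

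Il7r, the IL-7 receptor alpha chain that resting T cells need to survive (chr15, GRCm38), had 154.4, 138.8, 140.2 and 196.6 TPM in Spleen, against 25.23, 25.5, 27.23 and 20.52 TPM in TDLN_D12. It averaged 157.5 ± 27.0 TPM in Spleen and 24.6 ± 2.87 TPM in TDLN_D12 (SD), a change of 2.62 ± 0.42 (SE, adjusted p = 0.000123). The 4 Spleen libraries were close together and all above the TDLN_D12 libraries, and the call held in each fit that left out a library and with the covariates (adjusted p = 0.00506). Of 33 cytokine receptor and signalling genes 3 were called higher, Il7r among them, against 3.68% of all genes, and none lower (median 0.36). Socs2, an inhibitor of cytokine signalling that cytokines induce, had 74.25, 33.18, 21.54 and 58.15 TPM in Spleen and 7.06 to 9.75 TPM in TDLN_D12 (2.25 ± 0.45, adjusted p = 0.00137). Ifngr2, a chain of the interferon gamma receptor, had 4.24, 0.59, 46.4 and 56.12 TPM in Spleen and 0.5 to 1.64 TPM in TDLN_D12. Naive cells, whose B cell sums were 1162 to 1414 TPM, had 38.47 to 49.73 TPM of it. It was high in Spleen replicates 3 and 4, and its call ended without either of these or without any 1 TDLN_D12 library (highest adjusted p 0.132) and turned to -0.49 with the covariates.

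Of 35 survival and death genes 1 was called higher, or 2 without Spleen replicate 2, and 3 lower, together near the 8.18% of all genes. The lower count was 0 with the covariates. Bbc3, which encodes the death-promoting protein Puma, had 28.16, 36.72, 24.65 and 32.38 TPM in Spleen and 3.97 to 5.2 TPM in TDLN_D12 (2.51 ± 0.45, adjusted p = 0.000464). Bcl2a1d, a survival gene of a family of near-identical copies between which reads may be split, had 29.89 to 69.64 TPM in Spleen and 188.0 to 210.1 TPM in TDLN_D12 (-2.05 ± 0.45, adjusted p = 0.00349). Bcl2, the survival protein linked to IL-7 signals, was not called, with 5.52, 4.89, 19.97 and 20.31 TPM in Spleen and 2.61 to 3.81 TPM in TDLN_D12 (adjusted p = 0.168). All 4 Spleen libraries lay above the TDLN_D12 libraries for Bcl2, with replicates 3 and 4 far above the others. The call of Bcl2l1, the survival gene Bcl-xL (-1.82), ended without Spleen replicate 1 or 3 or TDLN_D12 replicate 1, 2 or 4 (highest adjusted p 0.0856). With the covariates neither Bcl2l1 nor Bcl2a1d passed (adjusted p = 0.0993 and 0.152), at changes of -2.1 and -1.6.

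Of 35 tested killer lectin receptors and genes of long-lived effector cells, 7 were called higher in Spleen, against 3.68% of all genes, none lower and 28 not. The list's median change was 1.33, and in 15 members every Spleen library lay above every TDLN_D12 library, against 13.9% of all genes. Ccl5, the chemokine RANTES that memory CD8+ cells store as mRNA, had 23419, 21670, 5067 and 5757 TPM in Spleen and 501.7, 546.8, 662.1 and 639.1 TPM in TDLN_D12 (4.24 ± 0.65, adjusted p = 7.52e-05). Spleen replicates 1 and 2 stood well above 3 and 4, and all 4 above TDLN_D12. Klre1, an NK cell lectin receptor, had 157.0, 56.68, 49.18 and 109.0 TPM in Spleen and 2.15 to 3.77 TPM in TDLN_D12 (4.39 ± 0.96, adjusted p = 0.00328). Klrd1, the CD94 chain that pairs with NKG2 receptors, had 673.3, 583.4, 457.7 and 479.2 TPM in Spleen and 125.6 to 160.6 TPM in TDLN_D12 (1.97 ± 0.48, adjusted p = 0.0091). The sum of the 8 NK cell markers was also higher in every Spleen library, with 7.98, 6.56, 12.85 and 85.79 TPM in Spleen and 1.07 to 2.98 TPM in TDLN_D12. Ncr1, one of these markers, had 0.32, 0.83, 0.0 and 24.36 TPM in Spleen and 0.0 to 0.06 TPM in TDLN_D12. The part of NK cell RNA in these calls was not tested. With the covariates 6 members of the list were called, among them Ccl5, Klre1, Klrd1, Klrk1 and Klrc2.

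Klrk1, the activating receptor NKG2D, had 498.0, 859.1, 222.6 and 711.4 TPM in Spleen and 121.9 to 145.9 TPM in TDLN_D12 (1.91), and its call ended without Spleen replicate 2 or TDLN_D12 replicate 4 (highest adjusted p 0.066). Klrc2, the NKG2C chain, whose reads may be shared with close family members, had 36.24, 26.12, 7.58 and 26.41 TPM in Spleen and 3.78 to 4.35 TPM in TDLN_D12 (2.11). Its call ended without Spleen replicate 1, 2 or 4 or any TDLN_D12 library (highest adjusted p 0.126). Zeb2, a repressor that drives terminal effector differentiation, had 10.34, 2.79, 5.14 and 19.11 TPM in Spleen and 0.8 to 1.74 TPM in TDLN_D12 (1.89 ± 0.51, adjusted p = 0.0181). That call ended without Spleen replicate 1 or 4 or TDLN_D12 replicate 3 (highest adjusted p 0.072) and with the covariates (adjusted p = 0.424). The list's count was 4 without Spleen replicate 1 or 4 or TDLN_D12 replicate 3 or 4. Fcgr2b, the inhibitory Fc receptor that B cells and myeloid cells also carry, changed by 2.59, and by -0.03 with the covariates. Its call ended without Spleen replicate 1, 3 or 4 or any TDLN_D12 library (highest adjusted p 0.102). Cx3cr1, the fractalkine receptor of effector cells, had 44.41, 53.66, 21.3 and 80.73 TPM in Spleen and 11.46 to 15.87 TPM in TDLN_D12 without overlap, but was not called (1.64 ± 0.54, adjusted p = 0.0563). With only the 2 groups in the fit Cx3cr1 was called (adjusted p = 0.0201). Klrg1, the classical marker of terminal effectors, had 12.48, 2.3, 0.4 and 12.95 TPM in Spleen, on both sides of the 5.27 to 7.12 TPM of TDLN_D12.

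**Figure D4:**
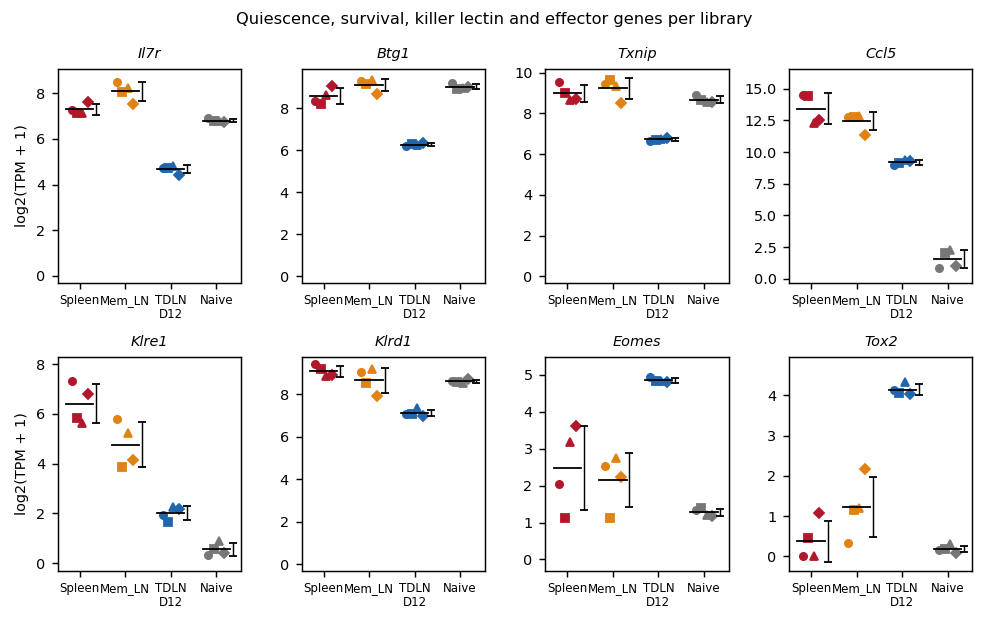
Log2(TPM + 1) of 8 genes per library in Spleen, Mem_LN, TDLN_D12 and Naive cells, with marker shapes for replicates 1 to 4, a line at the mean and an error bar of 1 SD (n = 4). Il7r, Btg1, Txnip, Ccl5, Klre1 and Klrd1 were higher in every Spleen library than in any TDLN_D12 library, and Eomes and Tox2 were lower.

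Cytotoxic genes and cytokines did not move together. Of 31 members 2 were called higher and 3 lower, against 3.68% and 4.49% of all genes, with a median of -0.18. The granzymes and perforin of the core list were not called. Gzma had 3636, 1024, 413.3 and 1353 TPM in Spleen and 550.6 to 746.3 TPM in TDLN_D12 (adjusted p = 0.595). Gzmb had 450.9, 664.4, 134.5 and 457.6 TPM in Spleen and 552.0 to 750.8 TPM in TDLN_D12 (adjusted p = 0.389). Prf1, the pore-forming protein, had 55.32 to 133.0 TPM in Spleen and 29.93 to 39.58 TPM in TDLN_D12, without overlap (1.17 ± 0.81, adjusted p = 0.405). It was called with only the 2 groups in the fit (adjusted p = 0.0212). Gzmf, a granzyme of recently activated cells in mouse, had 0.0, 0.0, 0.65 and 0.11 TPM in Spleen and 18.44, 20.49, 21.15 and 20.05 TPM in TDLN_D12 (-4.17 ± 0.28, adjusted p = 1.19e-11). Il21, a cytokine of helper cells that activated CD8+ cells can also make, had 0.09 to 0.97 TPM in Spleen and 6.15 to 7.37 TPM in TDLN_D12 (-2.48 ± 0.31, adjusted p = 5.06e-06). Csf1, the growth factor of macrophages, had 35.45, 58.67, 23.4 and 70.59 TPM in Spleen and 1.95 to 3.67 TPM in TDLN_D12 (3.58 ± 0.63, adjusted p = 0.000295). All of Gzmf, Il21 and Csf1 passed with the covariates and whichever library was left out. Tnf, the inflammatory cytokine (-2.05), lost its call without Spleen replicate 1 or 2 or any TDLN_D12 library (highest adjusted p 0.0894). Ifng, the interferon of effector cells, had 23.82, 34.88, 5.72 and 38.74 TPM in Spleen and 30.35 to 37.79 TPM in TDLN_D12 (adjusted p = 0.506).

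Of 29 inhibitory and activation receptors and factors induced by antigen, 6 were called lower in Spleen, against 4.49% of all genes, 1 higher and 22 not. The list's median was -1.17, and in 16 members every Spleen library lay below every TDLN_D12 library, against 11.3% of all genes. Tox2, a relative of the exhaustion factor Tox, had 0.0, 0.37, 0.0 and 1.1 TPM in Spleen and 16.55, 15.56, 19.06 and 15.38 TPM in TDLN_D12 (-3.75 ± 0.38, adjusted p = 1.98e-07). Tox itself had 3.41, 0.81, 15.86 and 7.64 TPM in Spleen and 17.05 to 20.73 TPM in TDLN_D12, without overlap and without a call (-1.78 ± 0.61, adjusted p = 0.0656). Cd160, a receptor of the HVEM axis, had 10.45, 25.07, 20.17 and 19.19 TPM in Spleen and 177.8 to 212.1 TPM in TDLN_D12 (-3.34 ± 0.80, adjusted p = 0.00745). Icos, a costimulatory receptor of activated cells, had 33.49, 72.88, 24.23 and 49.56 TPM in Spleen and 237.0 to 312.4 TPM in TDLN_D12 (-2.70 ± 0.53, adjusted p = 0.00114). Tox2 passed with the covariates, while Cd160 and Icos did not (adjusted p = 0.107 and 0.125), at changes of -3.2 and -1.95. The list's lower count was 3 with the covariates, and its higher count was 2 without Spleen replicate 2 and 0 without Spleen replicate 4, without replicates 3 and 4 or with the covariates.

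Pdcd1, the checkpoint receptor PD-1, had 20.79, 31.26, 20.09 and 29.85 TPM in Spleen and 42.38 to 57.33 TPM in TDLN_D12. The groups did not overlap, and the difference was not called (-0.98 ± 0.76, adjusted p = 0.469), but it was with only the 2 groups in the fit (adjusted p = 0.0189). Lag3, another checkpoint receptor, had 0.84 to 1.89 TPM in Spleen and 4.26 to 5.19 TPM in TDLN_D12 (-1.24), with a call that ended without Spleen replicate 1 or TDLN_D12 replicate 3 (highest adjusted p 0.0604). Tnfrsf4, the costimulatory receptor OX40, changed by -2.62, and its call ended without Spleen replicate 2 or 3 or any TDLN_D12 library (highest adjusted p 0.091). Cd38, an ectoenzyme also found on B cells and myeloid cells, was the 1 higher call (2.21), with 97.64 TPM in Spleen replicate 4, 11.53 to 21.12 TPM in the other Spleen libraries and 4.43 to 4.81 TPM in TDLN_D12. It lost its call without that library (adjusted p = 0.0607) and with the covariates (adjusted p = 0.54).

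Transcription factors of memory and effector fate differed one by one. Eomes, a T-box factor of effector and central memory cells, had 3.1, 1.16, 8.13 and 11.3 TPM in Spleen and 29.91, 27.57, 27.43 and 26.89 TPM in TDLN_D12 (-2.36 ± 0.58, adjusted p = 0.00927). Its relative Tbx21, T-bet, had 63.91 to 95.83 TPM in Spleen and 76.04 to 97.06 TPM in TDLN_D12 with overlap (adjusted p = 0.955). Id2, which favours effector cells, had 2141, 2778, 710.4 and 1639 TPM in Spleen and 1112 to 1339 TPM in TDLN_D12. Id3, which favours memory precursors, had 24.25, 5.44, 62.38 and 69.3 TPM in Spleen and 45.15 to 60.03 TPM in TDLN_D12. Prdm1, Blimp-1 of terminal effectors, had 4.5 to 9.62 TPM in Spleen and 7.98 to 10.8 TPM in TDLN_D12. Id2, Id3 and Prdm1 overlapped between the groups and were not called (adjusted p = 0.598, 0.634 and 0.657). Myb, a factor of proliferating and stem-like cells, had 1.91, 1.23, 4.11 and 10.06 TPM in Spleen and 16.2 to 22.53 TPM in TDLN_D12 (-2.28 ± 0.56, adjusted p = 0.00948), and lost its call with the covariates (adjusted p = 0.0833).

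The list of naive and central memory genes had 3 of 31 members called higher and 1 lower, against 3.68% and 4.49% of all genes, with a median of 0.09. Beside Il7r and Myb, these were Bach2, a repressor that restrains effector differentiation, and Ltb, lymphotoxin beta. Bach2 had 5.39, 5.38, 16.89 and 16.67 TPM in Spleen and 0.65 to 0.95 TPM in TDLN_D12 (2.60 ± 0.47, adjusted p = 0.000461), and 0.0901 was its adjusted p with the covariates. Ltb had 861.8 to 1629 TPM in Spleen and 347.4 to 399.9 TPM in TDLN_D12 (1.52), with a call that ended without Spleen replicate 3 or any TDLN_D12 library (highest adjusted p 0.0966). The list's higher count was 5 without Spleen replicate 1 and 8 without Spleen replicate 2, and its lower count 2 without Spleen replicate 3 or 4 and 6 without both. With the covariates the higher count was 1.

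Genes typical of naive and central memory cells split the Spleen libraries. Ccr7, the receptor for the lymph node chemokines, had 14.18, 8.5, 444.9 and 139.7 TPM in Spleen and 41.77 to 60.12 TPM in TDLN_D12. Replicates 1 and 2 lay below and replicates 3 and 4 above every TDLN_D12 library. Lef1, a Wnt pathway factor of naive cells, had 10.48, 4.88, 312.9 and 67.51 TPM in Spleen and 70.93 to 84.13 TPM in TDLN_D12. Tcf7, its partner TCF-1, had 33.1, 52.37, 308.4 and 160.2 TPM in Spleen and 173.5 to 241.4 TPM in TDLN_D12. None of the 3 genes was called (adjusted p = 0.992, 0.487 and 0.27). Replicates 3 and 4 were the higher ones for each and had the highest B cell sums, but in another order. Replicate 3 was the highest for all 3 genes, with a B cell sum of 22477 TPM against 40815 TPM in replicate 4. It also had the highest T cell identity sum of the Spleen libraries (32859 TPM, 12467 TPM in replicate 4). The source of the split was not tested. Naive cells had 650.0 to 713.5 TPM of Ccr7 and 585.9 to 674.4 TPM of Lef1.

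**Figure D5:**
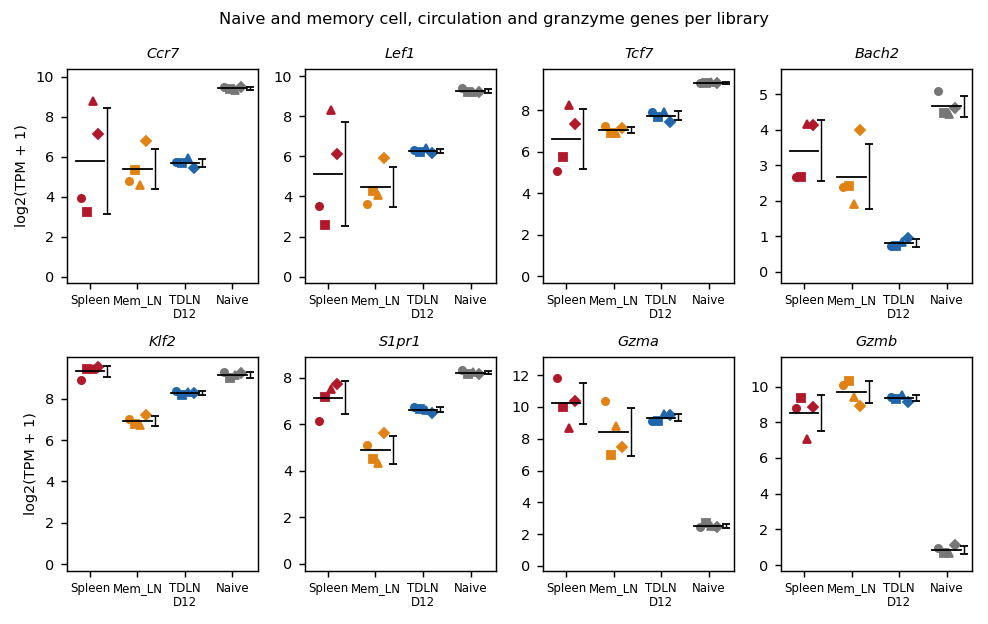
Log2(TPM + 1) of 8 genes per library in Spleen, Mem_LN, TDLN_D12 and Naive cells, with marker shapes for replicates 1 to 4, a line at the mean and an error bar of 1 SD (n = 4). Ccr7 was high in Spleen replicates 3 and 4 (444.9 and 139.7 TPM) and low in replicates 1 and 2 (14.18 and 8.5 TPM), while Klf2 stood above TDLN_D12 in all 4.

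Of 37 chemokine receptor and adhesion genes 2 were called higher, against 3.68% of all genes, 1 lower and 34 not (median 0.74). In 13 of the 37 every Spleen library lay above every TDLN_D12 library, against 13.9% of all genes. The higher count was 8 with only the 2 groups, 11 with weights per group, 1 with the covariates and 0 without Spleen replicates 3 and 4. Ccr4, a receptor for chemokines of inflamed skin, had 0.46, 0.26, 1.5 and 1.28 TPM in Spleen and 12.23 to 14.65 TPM in TDLN_D12 (-3.04 ± 0.56, adjusted p = 0.000591), also called with the covariates. Gpr183, a receptor for oxysterols that guides B cells (1.42), and Gpr34, a lysophospholipid receptor (1.64), were the higher calls. Gpr183 lost its call without Spleen replicate 2, 3 or 4 or any TDLN_D12 library (highest adjusted p 0.0833), and Gpr34 without Spleen replicate 2 or 4 or any TDLN_D12 library (highest adjusted p 0.101). The list had no higher call without Spleen replicate 4 or any 1 TDLN_D12 library. Cxcr6, a receptor of tissue CD8+ cells, had 563.4, 1071, 447.4 and 813.8 TPM in Spleen and 231.0 to 292.0 TPM in TDLN_D12 without overlap, and was not called (1.35 ± 0.48, adjusted p = 0.0829). The fit of only the 2 groups called Cxcr6 (adjusted p = 0.0139). Cxcr3, the receptor for interferon-induced chemokines, had 119.7 to 413.5 TPM in Spleen and 330.0 to 412.2 TPM in TDLN_D12.

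Of 31 tissue residency genes 2 were called higher and 3 lower (median -0.27), against 3.68% and 4.49% of all genes. The lower ones were Fabp5 and Icos, given above, and Rgs1, an inhibitor of chemokine receptor signals (-1.42), whose call ended without any 1 of the 8 libraries except Spleen replicate 4 (highest adjusted p 0.157). Rgs2, a related inhibitor, had 63.11, 45.11, 40.98 and 171.3 TPM in Spleen and 16.0 to 19.3 TPM in TDLN_D12 (1.87 ± 0.43, adjusted p = 0.0053), and was not called with the covariates (adjusted p = 0.14). The list's higher count was 1 without Spleen replicate 2 or 4 or any TDLN_D12 library, without Spleen replicates 3 and 4, and with the covariates. Itgae, the CD103 integrin of epithelial residency, had 38.34, 141.1, 39.57 and 64.23 TPM in Spleen and 53.72 to 80.45 TPM in TDLN_D12, and Cd69 had 15.29, 52.02, 72.98 and 94.34 TPM and 55.81 to 62.69 TPM. Both overlapped between the groups (adjusted p = 0.892 and 0.787).

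Of 32 genes of the type I interferon response 6 were called higher in Spleen, against 3.68% of all genes, none lower and 26 not. The list's median change was 0.86, and in 14 members every Spleen library lay above every TDLN_D12 library, against 13.9% of all genes. The median member had a log2 level of 3.74, 5.56, 4.96 and 4.83 in Spleen and 3.27 to 3.59 in TDLN_D12. Naive libraries, at 5.8 to 6.07, lay above every Spleen library. Ifit1bl1, a member of the IFIT family of RNA-binding proteins, had 19.26, 73.8, 94.93 and 70.08 TPM in Spleen and 5.51 to 7.94 TPM in TDLN_D12 (2.81 ± 0.50, adjusted p = 0.000376). Ifit3 had 32.54, 74.47, 42.67 and 67.27 TPM in Spleen and 6.42 to 10.15 TPM in TDLN_D12 (2.49 ± 0.50, adjusted p = 0.00145), and its near-identical copy Ifit3b, between which reads may be split, changed by 2.35. Ddx58, the viral RNA sensor RIG-I, had 110.3, 49.22, 40.08 and 48.15 TPM in Spleen and 15.98 to 18.27 TPM in TDLN_D12 (1.68 ± 0.35, adjusted p = 0.00222). Replicate 1 was the lowest Spleen library for Ifit1bl1 and the highest for Ddx58. Isg15, a ubiquitin-like modifier (1.75), lost its call without Spleen replicate 2 or TDLN_D12 replicate 1, 2 or 3 (highest adjusted p 0.0899), and Usp18, which removes it (2.30), without Spleen replicate 3 (adjusted p = 0.0501). With the covariates 2 members were called, Ifit1bl1 and Ddx58.

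Immediate early genes, which respond within minutes to signals and to tissue handling, had 2 of 35 members called higher and 2 lower. Over all genes these shares were 3.68% and 4.49%. Egr2, induced by receptor signals, had 0.0, 0.0, 2.94 and 7.24 TPM in Spleen and 15.32 to 21.14 TPM in TDLN_D12 (-3.0), and its call ended without Spleen replicate 1 or 2 or TDLN_D12 replicate 1, 2 or 3 (highest adjusted p 0.0938). Fosl2, a subunit of AP-1, had 2.59 to 3.6 TPM in Spleen and 0.34 to 0.49 TPM in TDLN_D12 (1.52), and its call ended without TDLN_D12 replicate 1 (adjusted p = 0.0505). The lower count was 0 without Spleen replicate 1 or 2 or TDLN_D12 replicate 1, 2 or 3, 1 without TDLN_D12 replicate 4, 6 without Spleen replicate 4 and 7 without Spleen replicates 3 and 4. The higher count was 1 without TDLN_D12 replicate 1 or without Spleen replicates 3 and 4, and 0 with the covariates.

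Among called genes outside the marker lists with no overlap and a mean log2 level of 3 or more over the 8 libraries, the largest increases were led by genes of macrophages and other myeloid cells. Fcna, a lectin of splenic macrophages, had 58.34, 62.43, 39.69 and 314.6 TPM in Spleen and 0.0, 0.0, 0.0 and 0.07 TPM in TDLN_D12 (6.36 ± 1.28, adjusted p = 0.00146). Slpi, a protease inhibitor, had 203.7, 106.2, 56.78 and 685.4 TPM in Spleen and 1.29 to 2.0 TPM in TDLN_D12 (6.07 ± 1.35, adjusted p = 0.00401). Trf, transferrin, changed by 5.85, Cfp, the complement factor properdin, by 5.35, and Spic, the factor of red pulp macrophages, by 4.59. Spleen replicate 4, with the highest myeloid sum, was the highest library for all 5, and replicate 3, with the lowest, was the lowest. With the covariates Spic was the only one of the 5 that passed (adjusted p = 0.0368). Rnu3b2, Rnu3b4, U3 and U3.1, copies of the U3 nucleolar RNA with identical values in every library, had 26.16 to 103.0 TPM in Spleen and 0.0 to 2.22 TPM in TDLN_D12 and count as 1 uncertain observation. Their calls ended without Spleen replicate 3 or TDLN_D12 replicate 2 or 3 (highest adjusted p 0.0611). Klre1, described above, was the other gene of this group, and Actg2, a smooth muscle actin, was the 1 gene outside the cell cycle among the 10 largest decreases at that level, with 0.32, 0.0, 2.41 and 1.51 TPM in Spleen and 38.99, 39.1, 39.11 and 34.6 TPM in TDLN_D12 (-4.41 ± 0.42, adjusted p = 4.27e-08).

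Mem_LN cells were set beside Spleen to see which differences the 2 groups with later or unstated times have in common; both comparisons share the TDLN_D12 libraries. Mem_LN minus TDLN_D12 had 7.41% of genes called, 4.42% higher and 2.99% lower in Mem_LN. There the 56 mitosis genes were all called lower as well, with a median of -3.14, and 26 of 42 DNA replication genes were, with a median of -2.01. Interferon genes had 12 of 32 called higher, with a median of 1.22. The list of quiescence genes and inhibitors had 9 of 32, the cyclin gene Ccnd2 among them, with a median of 0.99. Il7r changed by 3.41, Eomes by -2.70, Zeb2 by 2.24 and Mki67 by -2.48 in Mem_LN, beside 2.62, -2.36, 1.89 and -2.70 in Spleen. Tissue residency genes had 11 of 31 called higher and none lower in Mem_LN, with a median of 1.02, beside 2 higher and 3 lower in Spleen with a median of -0.27.

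The direct comparison of Spleen with Mem_LN called 0.481% of all genes, 0.122% higher and 0.36% lower in Spleen. Of the 32 core genes, 1 was called: Klf2, the factor that keeps T cells in circulation. It had 483.5, 698.1, 683.0 and 725.1 TPM in Spleen, against 129.1, 106.6, 105.2 and 145.8 TPM in Mem_LN (2.40 ± 0.46, adjusted p = 0.00842). With the B cell and myeloid covariates no core gene was called in this comparison. For Klf2, TDLN_D12 lay between Spleen and Mem_LN with 285.7 to 326.0 TPM, below every Spleen library. The change of Spleen against TDLN_D12 was not called (1.05 ± 0.46, adjusted p = 0.162), but it was with only the 2 groups in the fit (adjusted p = 0.00643). With the B cell and myeloid covariates that change was 0.18 (adjusted p = 0.906). S1pr1, the egress receptor that Klf2 induces, had 68.96, 144.0, 184.8 and 209.9 TPM in Spleen and 33.84, 21.68, 19.4 and 48.93 TPM in Mem_LN, without overlap and without a call (2.24, adjusted p = 0.359). Against TDLN_D12, at 90.03 to 107.9 TPM, 3 Spleen libraries lay above and replicate 1 below. Of the residency list 4 genes were called lower in Spleen than in Mem_LN and none higher; Rgs1, at -2.26 (adjusted p = 0.00992), was one of them.

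Of the 32 core genes 4 were called between Spleen and TDLN_D12: Il7r and Zeb2 higher, Eomes and Mki67 lower. Over all genes 3.68% were called higher and 4.49% lower. In 7 of the 32 core genes every Spleen library lay above every TDLN_D12 library and in 6 every one lay below, against 13.9% and 11.3% of all genes. Others not yet given were Gzmk, a granzyme of memory cells, with 30.61 to 187.2 TPM in Spleen and 224.2 to 256.9 TPM in TDLN_D12, Il2rb, the receptor chain for IL-2 and IL-15, with 88.1 to 275.2 TPM and 349.1 to 435.0 TPM, Il2ra, the high affinity IL-2 receptor chain, with 1.93 to 9.94 TPM and 7.36 to 8.58 TPM, and Cd44, the adhesion receptor of experienced cells, with 27.03 to 103.4 TPM and 53.76 to 58.04 TPM. Every Spleen library lay below TDLN_D12 for Gzmk and Il2rb, and neither was called (adjusted p = 0.39 and 0.181), while Il2ra and Cd44 overlapped. In the fit of only the 2 groups, Il2rb was called (adjusted p = 0.0255), as were Klf2, Pdcd1, Cxcr6, Cx3cr1 and Prf1. None of these genes passed with the B cell and myeloid covariates. The uncalled core genes Gzmk, Tox and Bcl2, also without overlap, did not pass there (adjusted p = 0.081, 0.0837 and 0.0979).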

How the data were processed

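Bulk RNA sequencing was measured in 32 libraries, and the 8 of Spleen and TDLN_D12 are compared here. The submitters' processing notes name Bowtie and the mm10 build. The version, annotation and counting method are not stated in the sources used here. The authors deposited natural log values of TPM + 1, a unit settled from the values, which convert back to multiples of 0.01 TPM and sum to between 999999.06 and 1000000.8 per library. Read counts are not used here, so depth and counting error are unknown.

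TPM + 1 was converted to log2. The 19738 genes with at least 1 TPM in at least 4 libraries entered limma 3.58.1 (R 4.3.3) with all 8 groups in 1 model, a variance trend and 24 residual degrees of freedom. Tests were two-sided, with Benjamini-Hochberg adjustment over all genes tested and calls under 0.05. The fit was also run on simulated data with independent noise for each gene. Such data could not test the effect of other cells' RNA, which moves many genes together. Of 46517 gene names 40395 matched the reference annotation. Python 3.11.15, NumPy 2.4.6, pandas 2.3.3 and Matplotlib 3.10.9 made sums, lists and figures.

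The libraries compared, the gene lists (19 programs, 12 cell type marker lists, 32 core genes) and the tests were chosen with earlier results of these data known. Named genes are the core list, the 10 largest called changes per direction with no overlap and a mean log2 level of 3 or more (without predicted genes, receptor segments, pseudogenes and marker genes), and up to 4 called members per list and direction. Other called members of lists with few calls, and the genes of the promoters shown, were named after their values were seen. A few genes under this rule are not reported here. No p is given for a list. Alternatives were no filter, 5 TPM, a pseudocount of 0.1, only the 2 groups, weights per group or library, a replicate block, quantile normalization, rescaling without mitochondrial and marker genes, leaving out the 6 libraries of low T cell identity (Spleen replicate 4 among them), that identity as a covariate, and omission of single libraries. Chosen later, with the values in view, were leaving out the Liver libraries, B cell and myeloid sums as covariates, and leaving out Spleen replicates 3 and 4.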

Additional observations from a re-analysis of the deposited data

Results flagged for a closer look

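Libraries that stood apart from the other 3 of their group were looked for in 272 groups of 4 values, with Dixon's criterion, and chance marks about 1 in 20 such groups. There were 15 cases, given here as values. In Spleen the low ones were Klf2 in replicate 1 (483.5 TPM, next 683.0), Uhrf1 in replicate 1 (3.52 TPM, next 10.88) and Cdkn3 in replicate 3 (0.0 TPM, next 7.17). The high ones in Spleen were Mki67 in replicate 2 (11.47 TPM, next 3.94) and Mcm10 in replicate 4 (2.41 TPM, next 0.69). In TDLN_D12 replicate 4 was the low library for Cd44 (53.76 TPM), Ccnb2 (366.9 TPM), Actg2 (34.6 TPM), Mcm10 (24.4 TPM), Tpi1 (238.6 TPM) and Odc1 (77.62 TPM), and the high one for Fcna (0.07 TPM, the others at 0.0). Replicate 3 of TDLN_D12 was low for Bcl2 (2.61 TPM, next 3.66) and high for Id3 (60.03 TPM, next 46.77), and replicate 1 was high for Klrg1 (7.12 TPM, next 5.4).

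The change of Klf2 against TDLN_D12 differed between Spleen and Mem_LN. It was 1.05 in Spleen and -1.35 in Mem_LN, and the difference, tested as the direct comparison of Spleen with Mem_LN, was 2.40 ± 0.46 (SE, adjusted p = 0.00842 with limma, n = 4 libraries per group). With the B cell and myeloid covariates this difference was not called.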

How the results depend on the processing

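Spleen libraries vary more than TDLN_D12 libraries and hold more RNA of other cells, read depth is unknown, and the shared variance of the model is widened by other groups. Genes called higher in Spleen, 727, became 1195 with only the 2 groups, 1694 with weights per group, 1946 per library, 1929 without libraries of low T cell identity and 1442 without the Liver libraries. Genes called lower, 887, became 1359, 1798, 2033, 2779 and 1629 under the same settings, 1388 after quantile normalization and 392 with B cell and myeloid covariates. Leaving out 1 library gave 369 to 773 higher and 607 to 1079 lower genes. The core genes called between Spleen and Mem_LN, 1, became 3 with weights per group, 8 per library, 3 after quantile normalization, 12 without libraries of low T cell identity, 2 with that identity as a covariate, 5 without the Liver libraries, 0 with B cell and myeloid covariates, 2 without Spleen replicates 3 and 4, and 1 to 2 when 1 library was left out. Fewer samples or another variance enter these fits by construction; the cause was otherwise not tested. Of the 97 named called genes, 47 were called with the B cell and myeloid covariates, 79 without Spleen replicates 3 and 4, 96 without those of low T cell identity, and 64 whichever library was left out.

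The replicate block gave 812 higher and 943 lower genes and called all 97 of these genes. Deviations of same-numbered libraries of Spleen and TDLN_D12 correlated at -0.0555, -0.0903, 0.169 and -0.279, and those of differently numbered libraries at -0.217 to 0.219. No pairing by number was seen, but so few correlations cannot settle whether the numbers pair the samples.

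Directions turned for named genes as follows; apart from Fcgr2b and Ifngr2 none was called. With the B cell and myeloid covariates the changes were Ccr7 -1.45, Tbx21 1.03, Prdm1 0.23, Gzmb 0.10, Ifng 0.29, Pdcd1 0.04, Il2ra 0.14, Itgae 1.11, Fcgr2b -0.03 and Ifngr2 -0.49. Without Spleen replicates 3 and 4 they were Ccr7 -2.10 and Itgae 0.06. With T cell identity as a covariate they were Tbx21 0.39, Cd44 0.13, Cd69 0.03 and Itgae 0.36, after quantile normalization Tbx21 0.07 and Cd44 0.08, with weights per library Myc 0.20, and without low T cell identity Ccr7 -0.36. When single libraries were left out, turns came from Spleen replicates: the range was -0.92 to 0.93 for Ccr7 (low without replicate 3 or 4), -0.76 to 0.34 for Klrg1 (high without 3), -0.40 to 0.24 for Cd44 (high without 1 or 3), -0.58 to 0.27 for Cd69 (high without 1), -0.61 to 0.01 for Itgae (high without 1) and -0.62 to 0.57 for Myc (high without 1 or 2).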
